A study of Arabidopsis thaliana with 26 samples.

Results

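UDP-glycosyltransferases (UGTs) are enzymes that move a sugar from a nucleotide-sugar donor onto a small molecule. The members described here are the probe sets matched to 1 gene whose symbol in the array annotation begins with UGT and a digit, with UGT76B1 left out. There were 46 such probe sets for 46 genes, among 13513 probe sets matched to 1 gene and 22746 probe sets in all. The names place them in 11 numbered subfamilies, with 9 members in UGT71, 7 each in UGT73 and UGT76, 5 each in UGT84 and UGT85, 4 in UGT72, 3 each in UGT74 and UGT78, and 1 each in UGT80, UGT87 and UGT88. The RefSeq gene table for Arabidopsis thaliana holds 58 genes with a UGT symbol, and all 46 members carry the same symbol there as in the array annotation. A further 3 probe sets match a UGT gene together with another gene and stand apart from the members.

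In plants, UGTs attach glucose, or less often another sugar, to hormones, flavonoids, phenylpropanoids, glucosinolate precursors, sterols and foreign compounds. The sugar usually makes the acceptor more soluble and, for a hormone, inactive. The glucose ester of abscisic acid and the glucosides of salicylic acid and of hydroxylated jasmonates are storage or disposal forms of the hormones applied in this study.

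The cells were T87, a green suspension line of Arabidopsis thaliana grown in shaken flasks, and the study asked how abscisic acid (ABA), salicylic acid (SA) and jasmonate act together. Cells received ABA at 25 µM, SA at 300 µM, methyl jasmonate at 100 µM (called JA) or the pairs ABA+SA and ABA+JA, while controls received ethanol at 0.6%, and all were taken at 3 h and 24 h. Each of the 12 groups had 2 arrays, except ABA with 3 at each time, which makes 26 arrays. The labels name no solvent for the hormone groups. Whether replicates are separate cultures is not stated either, and p-values here therefore measure the spread between arrays alone, which may be technical.

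Values are the deposited log2 signals, which run from 1.77 to 13.91, with array medians between 4.89 and 5.29. ABA replicates 2 and 3 at 3 h differed by less than any other replicate pair (SD of the difference 0.158, against 0.343 to 0.735 in the 15 other pairs) and were averaged and counted as 1 sample. Changes are differences of log2 group means with the standard error (SE) of 1 limma fit over all groups, and a member is called when its adjusted p, over all 22746 probe sets, is under 0.05. The number of arrays, 2 or 3 a group, limits the precision. On the 2331 probe sets outside the family that were called between the controls of the 2 times, with the control at 3 h set to 0 and the control at 24 h to 1, the ABA arrays lay at 0.438 to 0.565 at 3 h and 0.351 to 0.453 at 24 h. The combined arrays at 3 h lay at -0.191 to -0.143, JA at 24 h at 0.00746 and 0.61, and ABA+JA at 24 h at 0.0162 and 0.276. Culture state and an effect of the hormones on these probe sets cannot be told apart here, and the part of either in the results below was not tested.

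Titles and source names contradict each other for the 4 arrays of combined hormones at 3 h, and the titles were followed. JRG21, a jasmonate-induced oxygenase gene, had log2 signals of 10.43 and 11.31 on the arrays titled ABA+JA at 3 h, against 3.09 and 2.89 in the 3 h controls. The arrays titled ABA+SA read 3.06 and 2.94, close to the same controls. Results of members that rest on these 4 arrays are also given by source name where that ends a call.

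In the family, as over the whole array, nearly all calls came with ABA, alone or combined. Of 46 calls of members against the control of the same time, 45 fell in the 6 comparisons with ABA and 1 in the 4 comparisons with SA or JA alone, which is 97.8% with ABA, beside 94.4% of the 19825 calls over all probe sets. There were 23 members called at least once (50%, beside 41.7% of all probe sets), of which 19 were only higher, 3 only lower (UGT71C5, UGT72E1 and UGT88A1), and UGT71C2 was lower in 1 comparison and higher in another. UGT87A2 was called in 7 of 10 comparisons, UGT72E1 in 5, and UGT85A5 and UGT88A1 in 4 each. The 23 members never called had largest changes of 0.23 to 1.34 on the log2 scale, and 22 of them stayed under 2-fold in all 10 comparisons. These are bulk cultures, in which fewer cells of a kind and less RNA per cell cannot be told apart.

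**Figure D1:**
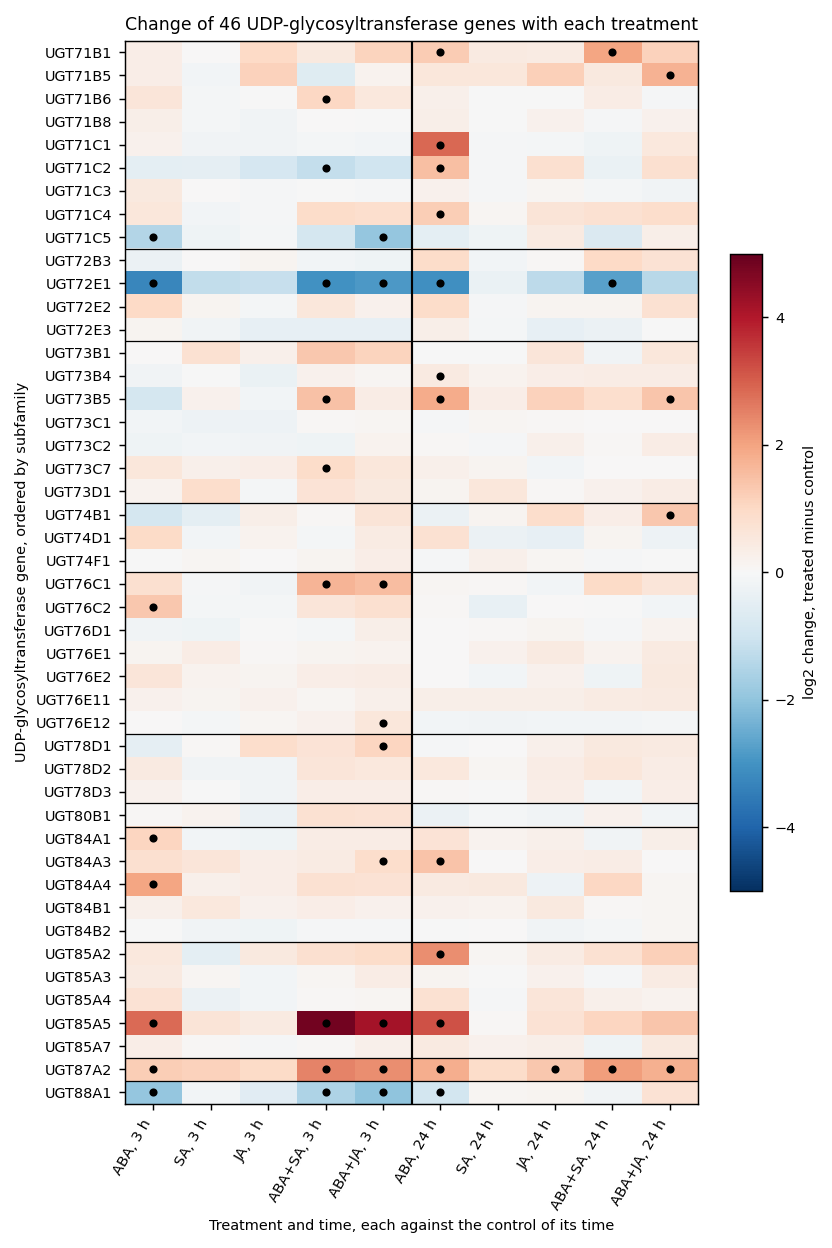
Log2 change of each of the 46 members (down the page, by subfamily) with each hormone treatment against the ethanol control of its time (across the page), with red higher and blue lower in treated cells and a dot where limma's adjusted p was under 0.05. The dots, 46 in all, lie in the ABA columns except 1 for UGT87A2 with JA at 24 h, and UGT72E1 is below 0 in all 10 columns.

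With ABA at 3 h, 5 members were called higher and 3 lower, which is 17.4% of the members, beside 14.1% of all probe sets. The higher calls were 10.9% of members, beside 5.73% of all probe sets, and the lower calls 6.52%, beside 8.38%. The median change over the 46 members was 0.23, against 0.03 over all probe sets. With ABA at 24 h, 10 members were called higher and 2 lower (26.1%, beside 17.5% of all probe sets), and the median change was 0.24, against -0.00 over all probe sets. ABA+SA at 3 h gave 6 higher and 3 lower members (19.6%, beside 15.6% of all probe sets, of which 6.55% were higher and 9.06% lower). ABA+JA at 3 h gave the same numbers (19.6%, beside 22.4% of all, 9.94% higher and 12.5% lower). At 24 h, ABA+SA gave 2 higher and 1 lower member (6.52%, beside 3.96% of all, 2.03% higher and 1.93% lower), and ABA+JA gave 4 higher and 0 lower (8.7%, beside 8.7% of all, with 709 probe sets higher and 1270 lower). By direction, higher calls with ABA at 24 h were 21.7% of members, beside 6.75% of all probe sets, and lower calls 4.35%, beside 10.8%.

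UGT85A5 had the largest rise in the family, and it was high on the arrays with ABA. The log2 signals were 5.34, 7.58 and 7.26 with ABA at 3 h, 8.77 and 7.99 with ABA+SA, and 7.78 and 7.65 with ABA+JA, against 3.94 and 3.19 in the 3 h controls. No ABA array overlapped a control array at that time. SA alone (4.37 and 4.05) and JA alone (4.71 and 3.29) at 3 h stayed near the controls. The change was 2.82 ± 0.61 with ABA (SE, adjusted p = 0.00583), 4.81 ± 0.61 with ABA+SA (adjusted p = 5.35e-05), which is 28.1-fold, and 4.15 ± 0.61 with ABA+JA (adjusted p = 0.000134). ABA replicate 1 was the lowest of its group, and without it the change with ABA was 3.86. Without control replicate 2 it was 2.44 and no longer called (adjusted p = 0.0648), and in a fit of these groups alone the adjusted p was 0.0743.

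At 24 h, UGT85A5 read 6.79, 5.34 and 6.55 with ABA, against 3.25 and 2.84 in the controls, again without overlap. That is a rise of 3.18 ± 0.55 (SE, adjusted p = 0.000881). The combined treatments at 24 h lay lower than ABA alone, at 4.32 and 3.94 with ABA+SA and 4.10 and 4.79 with ABA+JA, and neither was called against the control. The ABA+SA response at 24 h minus that at 3 h was -3.72 ± 0.86 (adjusted p = 0.0215). That call was lost without control replicate 2 at 3 h, control replicate 1 at 24 h, ABA+SA replicate 1 at 3 h or ABA+SA replicate 2 at 24 h (adjusted p = 0.0842 to 0.0939). Among the other members of UGT85, UGT85A2 was called with ABA at 24 h, at 10.21, 9.19 and 9.83 against 7.15 and 7.66 in controls, with no overlap and a change of 2.34 ± 0.50 (adjusted p = 0.00381). Without control replicate 1 at 24 h that change was 2.08 (adjusted p = 0.0516). UGT85A3, UGT85A4 and UGT85A7 were not called, with largest changes of 0.45, 0.76 and 0.50.

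UGT87A2, which is known from work on flowering time, was above its control in all 10 comparisons and was called in 7. At 3 h it read 8.53, 9.90 and 9.93 with ABA, 10.54 and 10.35 with ABA+SA and 10.29 and 10.34 with ABA+JA, against 8.30 and 7.65 in the controls. Every array of these treatments lay above both controls, ABA replicate 1 by the least. The changes were 1.24 ± 0.34 with ABA (SE, adjusted p = 0.0212), 2.47 ± 0.34 with ABA+SA (adjusted p = 0.000114) and 2.33 ± 0.34 with ABA+JA (adjusted p = 0.000122). The ABA change at 3 h was 0.92 without control replicate 2 (adjusted p = 0.192) and 1.94 without ABA replicate 1 (adjusted p = 0.000817), and in a fit of these groups alone the adjusted p was 0.227.

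At 24 h, UGT87A2 read 8.79, 8.4 and 8.53 with ABA, 8.91 and 8.77 with ABA+SA and 8.54 and 8.55 with ABA+JA, against 6.75 and 6.77 in the controls. The 3 treatments lay well clear of the controls, with changes of 1.82 ± 0.31 (SE, adjusted p = 0.000716), 2.08 ± 0.34 (adjusted p = 0.00159) and 1.79 ± 0.34 (adjusted p = 0.00422). JA alone at 24 h read 8.44 and 7.76, also above both controls, a change of 1.34 ± 0.34 (adjusted p = 0.0348). That JA call was lost with JA replicate 2 alone (change 1.0, adjusted p = 0.279), with the groups compared alone (adjusted p = 0.316) and without control replicate 1 or 2 (adjusted p = 0.176 and 0.124). With SA alone the signals were 9.24 and 9.01 at 3 h, and 7.62 and 7.71 on the later arrays, above the controls of each time by 1.14 ± 0.34 and 0.91 ± 0.34, with no call (adjusted p = 0.941 and 1).

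UGT72E1, a glucosyltransferase of monolignol aldehydes, had the largest fall. With ABA at 3 h it read 3.54, 3.59 and 3.77, with ABA+SA 4.29 and 3.37 and with ABA+JA 3.86 and 4.09, against 6.64 and 7.08 in the controls. All 7 arrays lay more than 2 log2 units under the lower control. The changes were -3.24 ± 0.47 with ABA (SE, adjusted p = 0.000389), which is 9.46-fold lower, -3.03 ± 0.47 with ABA+SA (adjusted p = 0.000335) and -2.88 ± 0.47 with ABA+JA (adjusted p = 0.000345). These 3 calls held under every setting tried and with each array left out.

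At 24 h, UGT72E1 read 4.04, 3.36 and 3.72 with ABA, 4.74 and 3.44 with ABA+SA, and 5.84 and 4.93 with ABA+JA, against 7.0 and 6.58 in the controls. All 7 treated arrays lay below both controls, and the changes were -3.08 ± 0.43 for ABA (SE, adjusted p = 0.000147), -2.70 ± 0.47 for ABA+SA (adjusted p = 0.00279) and -1.41 ± 0.47 for ABA+JA, which was not called (adjusted p = 0.0768). The ABA+SA fall was -2.05 without ABA+SA replicate 2 (adjusted p = 0.0603), -3.35 without replicate 1, and had an adjusted p of 0.0773 in a fit of these groups alone. SA alone (5.40 and 5.89) and JA alone (5.60 and 5.78) at 3 h lay below both controls too, by -1.21 ± 0.47 and -1.16 ± 0.47, with no call (adjusted p = 1 and 0.827). At 24 h JA alone read 5.04 and 5.92, again below both controls, a change of -1.31 with no call, while SA alone overlapped them. The other members of UGT72 did not follow UGT72E1. UGT72E2 and UGT72E3, glucosyltransferases of monolignols, and UGT72B3 were not called, and UGT72E2 was above 0 in 8 of 10 comparisons while UGT72E1 was above 0 in 0 of 10.

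UGT88A1 was also lower with ABA. At 3 h it read 8.37, 8.84 and 8.85 with ABA, 9.11 and 8.91 with ABA+SA and 8.61 and 8.48 with ABA+JA, against 10.58 and 10.53 in the controls. The groups did not overlap, while SA alone read 10.32 and 10.49 and JA alone 9.85 and 10.15, with no call. All 4 of these arrays lay below both controls, JA by a change of -0.56 (adjusted p = 0.997). The changes were -1.95 ± 0.29 with ABA (SE, adjusted p = 0.000407), -1.55 ± 0.29 with ABA+SA (adjusted p = 0.0013) and -2.01 ± 0.29 with ABA+JA (adjusted p = 0.000106), and these calls held under every setting and with each array left out. At 24 h the ABA arrays read 8.47, 8.36 and 8.33, against 9.53 and 9.08 in the controls, a change of -0.92 ± 0.26 (adjusted p = 0.0215) that was lost without control replicate 1 (adjusted p = 0.21) or ABA replicate 3 (adjusted p = 0.0544). With ABA+JA at 24 h it read 10.11 and 9.98, above both controls, with no call. The ABA+JA response differed between 24 h and 3 h by 2.75 ± 0.40 (adjusted p = 0.000834).

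**Figure D2:**
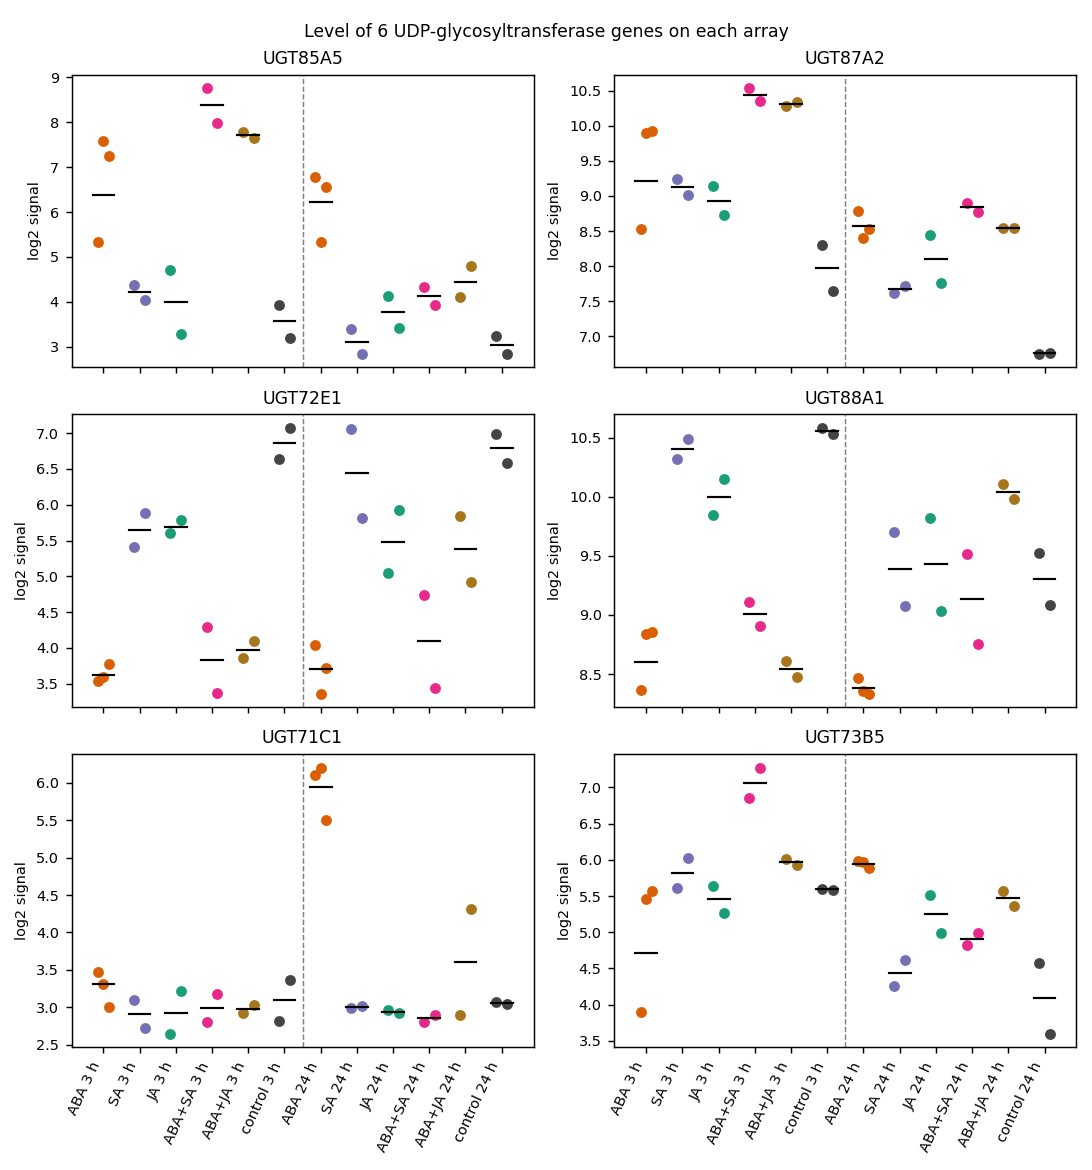
Log2 signal of UGT85A5, UGT87A2, UGT72E1, UGT88A1, UGT71C1 and UGT73B5 on each of the 26 arrays (points), by treatment with 3 h left of the dashed line and 24 h right of it; bars are group means, with ABA replicates 2 and 3 at 3 h counted as 1 sample. UGT71C1 is between 5.51 and 6.20 on the ABA arrays at 24 h, and at most 4.32 on all other arrays.

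With ABA at 24 h, 4 of 9 members of UGT71, 2 of 5 of UGT85 and 1 of 1 of UGT87 were called higher and 0 lower. Of all probe sets 6.75% were higher and 10.8% lower. In other subfamilies UGT73B4, UGT73B5 and UGT84A3 were called higher, and UGT72E1 and UGT88A1 lower. UGT71C1, which can glucosylate flavonoids and phenylpropanoids, read 6.11, 6.20 and 5.51 with ABA at 24 h, against 3.07 and 3.04 in the controls. No other group came near those arrays, apart from ABA+JA replicate 2 at 24 h with 4.32, and replicate 1 of that group read 2.89. The change with ABA was 2.88 ± 0.32 (SE, adjusted p = 2.12e-05). At 3 h the ABA arrays read 3.47, 3.31 and 3.01, against 2.82 and 3.37 in the controls, which overlap. The difference between the ABA responses at 24 h and 3 h was tested and was 2.66 ± 0.48 (adjusted p = 0.00319).

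The neighbouring gene UGT71C2 read 5.11, 5.35 and 5.21 with ABA at 24 h, against 3.6 and 3.86 in the controls, a change of 1.5 ± 0.33 (SE, adjusted p = 0.00529). With ABA+SA at 3 h it read 4.02 and 3.77, against 5.28 and 4.90 in the controls, a change of -1.20 ± 0.37 (adjusted p = 0.0345). It is thus the member called in both directions, and its ABA response at 24 h exceeded that at 3 h by 1.98 ± 0.50 (adjusted p = 0.0228). The call at 24 h was lost without control replicate 1 (adjusted p = 0.0591), and the difference between times without control replicate 1 at 3 h, either control at 24 h or ABA replicate 1 at 3 h (adjusted p = 0.0536 to 0.0976). The ABA+SA call at 3 h was lost without either control or either ABA+SA array (adjusted p = 0.0731 to 0.219) and by source name (adjusted p = 0.0597).

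UGT71C4 read 7.19, 6.90 and 6.76 with ABA at 24 h, against 5.85 and 5.62 in the controls, with no overlap and a change of 1.21 ± 0.28 (SE, adjusted p = 0.00716). It was 1.10 without control replicate 2 (adjusted p = 0.0814). UGT71B1 read 7.48, 7.09 and 7.41 with ABA at 24 h and 8.20 and 7.83 with ABA+SA, against 6.50 and 5.62 in the controls. The ABA+SA change was 1.95 ± 0.46 (adjusted p = 0.0211), and it was no longer called without control replicate 2 or either ABA+SA array (adjusted p = 0.246, 0.169 and 0.0781) or in a fit of these groups alone (adjusted p = 0.0793). The ABA change of 1.26 ± 0.42 (adjusted p = 0.0476) lay at the threshold, was 0.83 without control replicate 2 (adjusted p = 0.389), and was lost in 16 of 33 settings.

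UGT71B5 rose with ABA+JA at 24 h, at 6.04 and 6.13 against 4.08 and 4.62 in the controls, a change of 1.74 ± 0.33 (SE, adjusted p = 0.00482). JA alone at 24 h (5.95 and 5.13) also lay above both controls, by 1.19 ± 0.33 with an adjusted p of 0.0547. The ABA+JA change was 1.47 without control replicate 1 (adjusted p = 0.0631), and in a fit of these groups alone the adjusted p was 0.0666. UGT71B8 and UGT71C3 were not called in any of the 10 comparisons, with largest changes of 0.31 and 0.47.

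In UGT73, UGT73B5, a gene of redox and defence responses, was called higher in 3 comparisons. It read 6.85 and 7.27 with ABA+SA at 3 h, against 5.60 and 5.58 in the controls, a change of 1.47 ± 0.39 (SE, adjusted p = 0.0156). By source name this change was 0.37 (adjusted p = 0.545), and it was lost without either control or without ABA+SA replicate 2 (adjusted p = 0.0812, 0.0807 and 0.128). ABA alone at 3 h split, with replicate 1 at 3.9 and the others at 5.46 and 5.57, below both controls, and was not called.

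At 24 h, UGT73B5 read 5.98, 5.97 and 5.89 with ABA and 5.58 and 5.36 with ABA+JA, against 4.57 and 3.6 in the controls, with no overlap. The changes were 1.86 ± 0.36 (SE, adjusted p = 0.00183) and 1.38 ± 0.39 (adjusted p = 0.037). Control replicate 2 was the lowest array, and without it the changes were 1.37 (adjusted p = 0.0566) and 0.89 (adjusted p = 0.325). Leaving out either ABA+JA array also ended that call (adjusted p = 0.159 and 0.091), as did quantile normalization (adjusted p = 0.057) and a fit of these groups alone (adjusted p = 0.169). The ABA response differed between the times by 2.75 ± 0.53 (adjusted p = 0.00521) and by 1.94 without ABA replicate 1 at 3 h (adjusted p = 0.0167).

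The neighbouring UGT73B4, known from the detoxification of nitroaromatic compounds, rose by 0.46 ± 0.15 with ABA at 24 h (SE, adjusted p = 0.0494), a call under 2-fold that was lost in 23 of 32 settings (adjusted p up to 0.238). UGT73C7 rose by 0.91 ± 0.24 with ABA+SA at 3 h (adjusted p = 0.0152), with 3.09 and 4.08 against 2.80 and 2.56 in the controls, and was not called without ABA+SA replicate 2, without control replicate 2, by source name or with these groups alone (adjusted p = 0.0954 to 0.277). UGT73B1, UGT73C1, UGT73C2 and UGT73D1 were not called. UGT73B1 had the largest change of the members never called, 1.34 with ABA+SA at 3 h.

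Hormone acceptors were assigned to 11 members here, a list that may not be complete. UGT71B6, UGT71B8 and UGT71C5 glucosylate ABA, UGT74F1 SA, UGT76D1 dihydroxybenzoates derived from SA, UGT71C3 methyl salicylate, UGT76E1 hydroxylated jasmonate, UGT84B1 and UGT74D1 auxin, and UGT76C1 and UGT76C2 cytokinin nitrogen atoms. With ABA at 3 h, 1 of these 11 was called higher and 1 lower (14.1% of all probe sets were called), with a median change of 0.31. With ABA at 24 h 0 were called (17.5% of all probe sets were), with a median of 0.08 and limma adjusted p-values of 0.216 or more, and the unadjusted intervals of all 11 held 0.

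Among the ABA glucosyltransferases, UGT71C5 fell. It read 4.25, 5.24 and 5.27 with ABA at 3 h and 4.14 and 4.39 with ABA+JA, against 6.29 and 6.14 in the controls, without overlap. The changes were -1.46 ± 0.38 (SE, adjusted p = 0.0159) and -1.95 ± 0.38 (adjusted p = 0.00128). ABA replicate 1 was the lowest of its group, and without it the ABA change was -0.96 (adjusted p = 0.205), while leaving out control replicate 1 or 2 gave adjusted p of 0.103 and 0.0659 and the groups alone 0.0868. The ABA+JA fall was -0.88 by source name (adjusted p = 0.138). At 24 h ABA+JA read 6.41 and 5.14, against 5.57 and 5.42 in the controls, which overlap, and the response at 24 h exceeded that at 3 h by 2.23 ± 0.53 (adjusted p = 0.0151). Without ABA+JA replicate 1 at 24 h the difference was 1.59 (adjusted p = 0.0758), without control replicate 1 at 3 h 2.15 (adjusted p = 0.0597), and without ABA+JA replicate 1 at 3 h 2.10 (adjusted p = 0.0634). By source name it was 1.16 (adjusted p = 0.235), and in a fit of these groups alone the adjusted p was 0.064.

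UGT71B6 rose with ABA+SA at 3 h, at 3.45 and 4.36 against 2.83 and 2.94 in the controls, a change of 1.02 ± 0.25 (SE, adjusted p = 0.0084). Replicate 2 carried much of it, and without that array the change was 0.57 (adjusted p = 0.164). By source name it was 0.52 (adjusted p = 0.149), without control replicate 1 it was 0.96 (adjusted p = 0.069), and in a fit of these groups alone the adjusted p was 0.0835. With ABA alone at 3 h UGT71B6 read 3.37, 3.58 and 3.67, above both controls, but a change of 0.61 ± 0.25 did not pass (adjusted p = 0.107, interval 0.10 to 1.13).

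The cytokinin glucosyltransferases moved at 3 h. UGT76C2 read 6.47, 6.25 and 6.06 with ABA, against 4.72 and 5.22 in the controls, with no overlap and a change of 1.34 ± 0.33 (SE, adjusted p = 0.0127). It was not called without ABA replicate 1 (adjusted p = 0.0981), without control replicate 1 (adjusted p = 0.132) or in a fit of these groups alone (adjusted p = 0.0582). UGT76C1 read 7.41 and 7.20 with ABA+SA and 7.24 and 7.10 with ABA+JA, against 5.78 and 5.45 in the controls, changes of 1.69 ± 0.41 (adjusted p = 0.00842) and 1.56 ± 0.41 (adjusted p = 0.0107). With ABA alone UGT76C1 split, at 5.61 for replicate 1 and 7.22 and 7.28 for the others, overlapped the controls and was not called. The UGT76C1 calls were lost without control replicate 2 (adjusted p = 0.0771 and 0.0825), the ABA+SA call without its replicate 1 (adjusted p = 0.0663) and the ABA+JA call without its replicate 1 (adjusted p = 0.0687).

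SA and JA applied alone gave no call for the members listed above with SA, an SA derivative or hydroxylated jasmonate as acceptor. This does not cover genes outside the members, UGT76B1 among them. UGT74F1 changed by 0.08 with SA at 3 h (interval -0.29 to 0.45) and by 0.24 at 24 h (interval -0.13 to 0.61). UGT76D1 changed by -0.22 (interval -0.58 to 0.13) and 0.04 (interval -0.31 to 0.40), and UGT71C3 by 0.03 (interval -0.47 to 0.52) and -0.07 (interval -0.56 to 0.43). The intervals at both times exclude a rise of 2-fold in array signal for these genes at these doses. Their mean signals over the 26 arrays were 3.61, 3.39 and 3.42, where the median over all probe sets was 5.20. Whether signals this low understate a change of the transcript was not tested. UGT76E1 changed by 0.05 with JA at 3 h (interval -0.32 to 0.42) and by 0.43 at 24 h (interval 0.06 to 0.80, adjusted p = 0.181). These are 95% intervals of single genes, not adjusted for the number of genes.

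**Figure D3:**
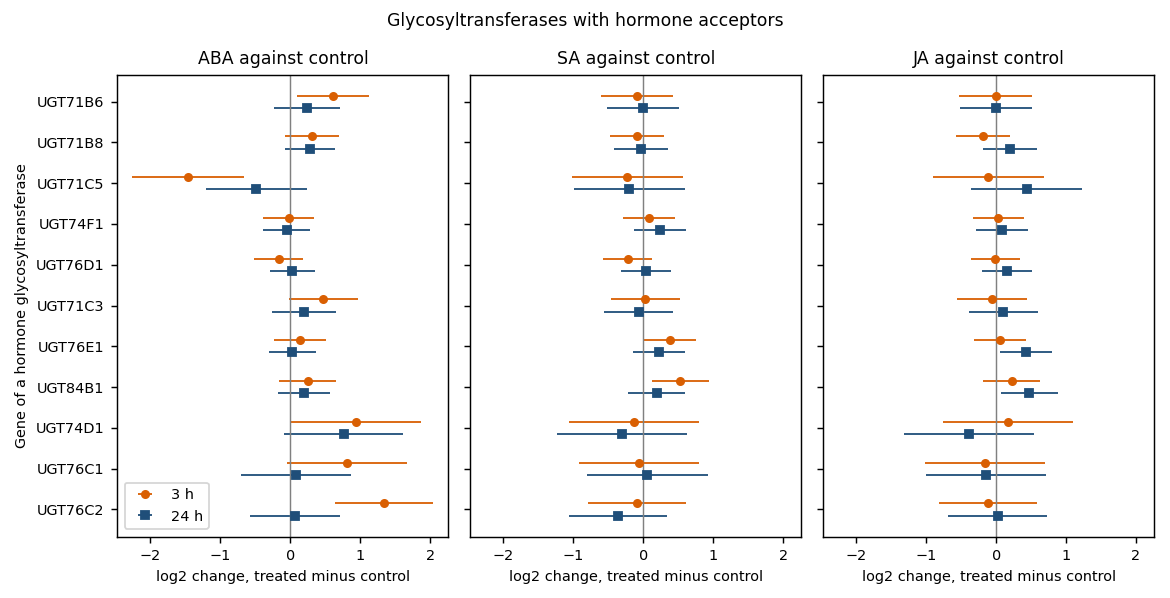
Log2 change (point) with its 95% interval (line) for the 11 members assigned hormone acceptors, with ABA, SA or JA alone against control at 3 h (circles) and 24 h (squares). UGT71C5 at -1.46 and UGT76C2 at 1.34, both with ABA at 3 h, are the called changes.

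The family as a whole gave 0 limma calls with SA at 3 h (0.136% of all probe sets were called), with JA at 3 h (0.343% of all) and with SA at 24 h (0.352% of all). An unadjusted p under 0.05 was reached by 6, 6 and 2 members in these comparisons, and by 741, 1180 and 537 probe sets of all. JA at 24 h gave the call of UGT87A2 alone, 2.17% of members beside 4.01% of all probe sets, which were 1.45% higher and 2.57% lower. Over all members the 95% intervals reached from -2.21 to 1.93 with SA at 3 h, -2.16 to 1.95 with JA at 3 h, -1.35 to 1.62 with SA at 24 h and -2.31 to 2.05 with JA at 24 h, and so include a 2-fold change for some members. The median changes were -0.05, -0.06, 0.03 and 0.23 in the same order.

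Of the 10 members with phenylpropanoid or flavonoid acceptors, 6 were called at least once against control (60%, beside 41.7% of all probe sets), and UGT72E2, UGT72E3, UGT78D2 and UGT78D3 never. UGT84A1, UGT84A3 and UGT84A4 make glucose esters of hydroxycinnamates. UGT84A4 read 5.04, 6.37 and 6.39 with ABA at 3 h, against 3.95 and 3.55 in the controls, a change of 1.96 ± 0.44 (SE, adjusted p = 0.00767), and UGT84A1 read 4.95, 5.16 and 5.21 against 4.21 and 3.76, a change of 1.08 ± 0.26 (adjusted p = 0.0116). Neither group overlapped its controls. Without control replicate 2 these calls were lost (adjusted p = 0.0699 and 0.123), as in a fit of these groups alone (adjusted p = 0.0716 and 0.0883), and without ABA replicate 1 the UGT84A4 change was 2.63.

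UGT84A3 read 4.39, 5.03 and 4.48 with ABA at 24 h, against 3.32 and 3.13 in the controls, a change of 1.41 ± 0.24 (SE, adjusted p = 0.000732) that held under every setting and with each array left out. Its mean was above the control in all 10 comparisons. With ABA+JA and SA at 24 h it was so by little (3.24 and 3.25 against 3.22), and the arrays overlapped. UGT84A3 was also called with ABA+JA at 3 h, by 0.87 ± 0.26 (adjusted p = 0.0246). That call was lost by source name, with quantile normalization and with these groups alone (adjusted p = 0.0544 to 0.379). It was also lost without either control or ABA+JA replicate 1. UGT84B1 and UGT84B2 were not called. In UGT78, UGT78D1, a flavonol rhamnosyltransferase, read 5.29 and 5.19 with ABA+JA at 3 h, against 4.46 and 3.84 in the controls, a change of 1.09 ± 0.28 (adjusted p = 0.00962). By source name it was 0.70 (adjusted p = 0.111), without control replicate 2 it was 0.78 (adjusted p = 0.131), and without ABA+JA replicate 1 it was 1.04 (adjusted p = 0.0631). UGT78D2, a flavonoid glucosyltransferase, and UGT78D3, a flavonol arabinosyltransferase, were not called, with largest changes of 0.60 and 0.35.

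UGT74B1, which glucosylates the thiohydroximate precursors of glucosinolates, rose with ABA+JA at 24 h. It read 7.09 and 8.22, against 6.43 and 6.19 in the controls, a change of 1.34 ± 0.30 (SE, adjusted p = 0.0115). Replicate 2 was the high array, and without it the change was 0.78 (adjusted p = 0.133). Without control replicate 2 the adjusted p was 0.0906, and in a fit of these groups alone 0.209. For UGT74B1, JA alone at 24 h (6.90 and 7.48) also lay above both controls, with no call, and ABA+JA over JA was not called. In UGT76 the remaining call was UGT76E12 with ABA+JA at 3 h, by 0.57 ± 0.19 (adjusted p = 0.0374), a call under 2-fold. It was lost in 6 of 33 settings, among them without either control or ABA+JA replicate 1, and by source name (change 0.20, adjusted p = 0.596). UGT76E2, UGT76E11 and the sterol glucosyltransferase gene UGT80B1 were not called, with largest changes of 0.60, 0.45 and 0.75.

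The second hormone was then tested over ABA alone. At 3 h, ABA+SA against ABA gave 5 higher members and 0 lower (10.9%, beside 18% of all probe sets, 8.96% higher and 9.06% lower). ABA+JA against ABA also gave 5 higher and 0 lower (10.9%, beside 21.5% of all, 10.9% higher and 10.5% lower). UGT78D1 read 5.29 and 5.19 with ABA+JA, against 3.41, 3.95 and 4.07 with ABA, a change of 1.53 ± 0.28 (SE, adjusted p = 0.00105). UGT74B1 read 7.68 and 7.40 with ABA+JA, against 5.70, 6.45 and 6.28 with ABA, a change of 1.51 ± 0.30 (adjusted p = 0.00198). Neither pair of groups overlapped, and both calls held under every setting and with each array left out. JA alone at 3 h gave means of 5.03 for UGT78D1 and 7.19 for UGT74B1, beside 5.24 and 7.54 with ABA+JA. ABA+JA over JA called neither. With ABA alone both means lay below the 3 h controls (3.71 against 4.15, and 6.03 against 6.90). With ABA+SA, UGT78D1 rose by 1.14 ± 0.28 (adjusted p = 0.00995) and UGT74B1 by 0.94 ± 0.30 (adjusted p = 0.0389) over ABA. The second of these was lost in 6 of 34 settings, with adjusted p up to 0.378 without ABA replicate 1.

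Other calls over ABA at 3 h, for UGT73B5, UGT87A2, UGT85A5 and UGT78D1, were smaller without ABA replicate 1. UGT73B5 rose by 2.36 ± 0.39 with ABA+SA (SE, adjusted p = 0.000761) and 1.26 ± 0.39 with ABA+JA (adjusted p = 0.0298), and without that array by 1.55 (adjusted p = 0.0134) and 0.45 (adjusted p = 0.444). UGT87A2 rose by 1.22 ± 0.34 (adjusted p = 0.0187) and 1.09 ± 0.34 (adjusted p = 0.0283), and without it by 0.53 (adjusted p = 0.348) and 0.40 (adjusted p = 0.425). UGT85A5 rose by 2.0 ± 0.61 with ABA+SA (adjusted p = 0.0306), by 0.96 without that array, and by 1.33 by source name (adjusted p = 0.133). The UGT78D1 change with ABA+SA was 0.83 without that array (adjusted p = 0.152) and 0.75 without ABA+SA replicate 2 (adjusted p = 0.15). UGT76E12 rose by 0.55 ± 0.19 with ABA+JA (adjusted p = 0.0461), a call lost in 25 of 33 settings. That change was 0.20 without ABA+JA replicate 1 and 0.175 by source name (adjusted p = 0.573). Leaving out single combined arrays also ended the calls of UGT85A5 with ABA+SA (adjusted p = 0.194 and 0.0586), of UGT87A2 (adjusted p = 0.0638 to 0.109) and of UGT73B5 with ABA+JA (adjusted p = 0.121 and 0.0889), and fits of these groups alone gave adjusted p of 0.0539 to 0.201 for UGT73B5, UGT78D1 with ABA+SA, UGT85A5 and UGT87A2. In the time coordinate given above, the ABA arrays lay at 0.438 to 0.565 and the combined arrays at or below -0.143, and its part in these differences was not tested.

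Over the other single hormone at 3 h, ABA+SA against SA gave 6 higher and 2 lower members (17.4%, beside 12.6% of all probe sets, 5.52% higher and 7.08% lower), and ABA+JA against JA gave 4 higher and 3 lower (15.2%, beside 20.3% of all, 8.84% higher and 11.4% lower). UGT85A5 rose by 4.17 ± 0.61 over SA (SE, adjusted p = 0.000258) and by 3.71 ± 0.61 over JA (adjusted p = 0.000438), and UGT88A1 fell by 1.40 (adjusted p = 0.00364) and 1.46 (adjusted p = 0.00172). These 4 calls held with each array left out. UGT71C4 rose by 1.06 ± 0.31 over SA (adjusted p = 0.033) and 0.92 ± 0.31 over JA (adjusted p = 0.0459). The call over SA was lost without either SA or either ABA+SA array (adjusted p = 0.0753 to 0.211), and the call over JA in 22 of 34 settings (adjusted p up to 0.262). UGT73B5 rose over SA by 1.24 ± 0.39 (adjusted p = 0.0464), a call lost in 24 of 34 settings and 0.14 by source name. UGT76C1, UGT87A2 and UGT72E1 were called over both single hormones in the direction they had against the control. Each of these 6 calls was lost without 1 to 4 of the arrays compared (adjusted p = 0.0503 to 0.189). UGT71B6 rose over SA by 1.11 ± 0.25 (adjusted p = 0.00593), and by 0.66 without ABA+SA replicate 2 (adjusted p = 0.121) and 0.60 by source name (adjusted p = 0.102). UGT71C5 fell by 1.84 over JA (adjusted p = 0.00231), and by 0.77 by source name (adjusted p = 0.205).

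At 24 h the second hormone went with smaller ABA changes in part of the family. ABA+SA against ABA gave 0 higher and 5 lower members (10.9%, beside 6.36% of all probe sets, 4.17% higher and 2.19% lower), and ABA+JA against ABA gave 4 higher and 2 lower (13%, beside 8.81% of all, 4.91% higher and 3.9% lower). UGT71C1 read 2.81 and 2.90 with ABA+SA and 2.89 and 4.32 with ABA+JA, against 6.11, 6.20 and 5.51 with ABA. The groups did not overlap, and the changes were -3.09 ± 0.32 (SE, adjusted p = 2.02e-05), 8.51-fold lower, and -2.34 ± 0.32 (adjusted p = 0.000261). Without ABA+JA replicate 1 the ABA+JA fall was -1.62 (adjusted p = 0.00644), without replicate 2 it was -3.05, and in a fit of these groups alone the adjusted p was 0.0826.

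UGT84A3 was lower by -1.04 ± 0.24 with ABA+SA (SE, adjusted p = 0.0157) and by -1.40 ± 0.24 with ABA+JA (adjusted p = 0.00178) than with ABA at 24 h. With ABA+SA, UGT85A5 was lower by -2.09 ± 0.55 (adjusted p = 0.0326), UGT71C2 by -1.81 ± 0.33 (adjusted p = 0.00422) and UGT84A1 by -0.85 ± 0.24 (adjusted p = 0.0427). The UGT85A5 call was lost without ABA replicate 1 or 3 or either ABA+SA array (adjusted p = 0.0904 to 0.256), that of UGT84A3 with ABA+SA without ABA replicate 2 or ABA+SA replicate 2 (adjusted p = 0.0602 and 0.209), that of UGT71C2 without ABA+SA replicate 2 (adjusted p = 0.0701), and that of UGT84A1 in 13 of 33 settings (adjusted p up to 0.353). In fits of these groups alone UGT84A3 had adjusted p of 0.096 and 0.0772, UGT85A5 of 0.0832 and UGT84A1 of 0.203.

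Members that ABA lowered lay higher with ABA+JA than with ABA at 24 h. UGT88A1 read 10.11 and 9.98, against 8.47, 8.36 and 8.33, a change of 1.66 ± 0.26 (SE, adjusted p = 0.000907) that held under every setting and with each array left out. UGT72E1 was higher by 1.68 ± 0.43 (adjusted p = 0.0227), and by 1.22 without ABA+JA replicate 1 (adjusted p = 0.302), 1.5 without ABA replicate 2 (adjusted p = 0.0703), 1.69 without ABA replicate 3 (adjusted p = 0.0542) and with an adjusted p of 0.0852 in a fit of these groups alone. UGT74B1 was higher by 1.65 ± 0.27 (adjusted p = 0.00143), or 1.09 without ABA+JA replicate 2 and with an adjusted p of 0.0944 in a fit of these groups alone, and UGT71B5 by 1.17 ± 0.30 (adjusted p = 0.0244), a call lost on leaving out any 1 of the ABA or ABA+JA arrays (adjusted p = 0.0546 to 0.14). ABA+SA against SA at 24 h gave 1 lower member, UGT72E1, and 0 higher (2.17%, beside 2.46% of all probe sets, 1.09% higher and 1.37% lower), a change of -2.35 ± 0.47 (adjusted p = 0.0111). It was -1.72 without SA replicate 1 (adjusted p = 0.183), -1.7 without ABA+SA replicate 2 (adjusted p = 0.191), -2.97 and -3.0 without the other array of each group, and had an adjusted p of 0.189 in a fit of these groups alone. ABA+JA against JA at 24 h gave 0 limma calls among members (0% of all probe sets were called), with 1 member and 684 probe sets at an unadjusted p under 0.05.

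**Figure D4:**
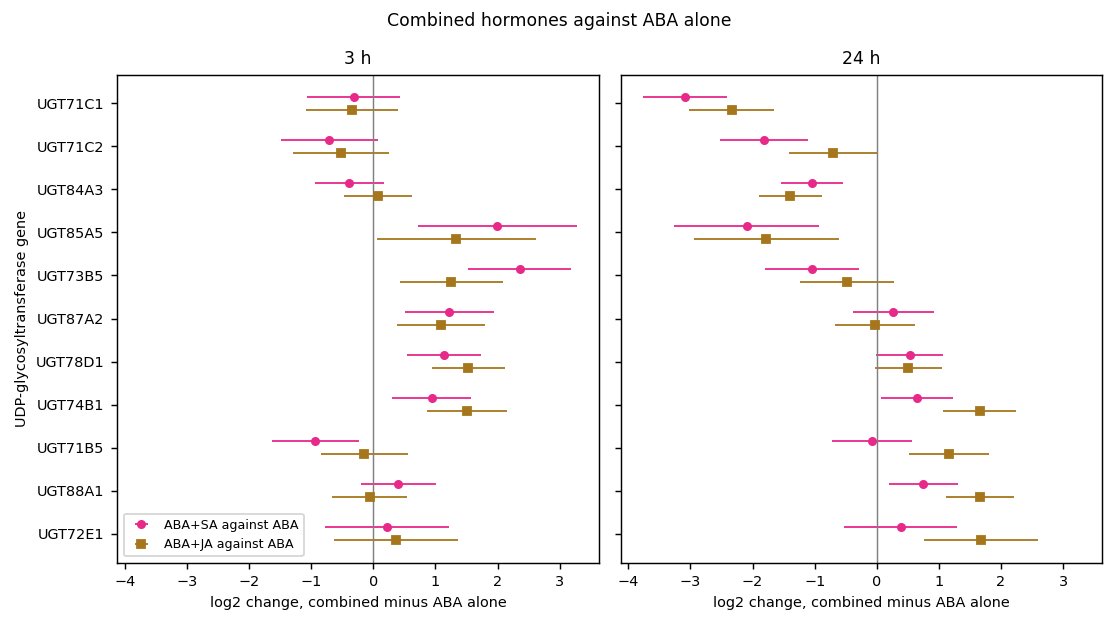
Log2 change (point) with its 95% interval (line) of 11 members with ABA+SA (circles) and ABA+JA (squares) over ABA alone, at 3 h (left) and 24 h (right). UGT71C1 lies at -3.09 and -2.34 at 24 h, and UGT88A1 at 1.66 with ABA+JA at 24 h.

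Some of the same genes differed between the controls of the 2 times, which received no hormone. The 24 h controls against the 3 h controls gave 0 higher and 4 lower members (8.7%, beside 10.3% of all probe sets, 6.74% higher and 3.52% lower), with a median change of -0.21 over members and -0.05 over all. UGT73B5 read 4.57 and 3.6 at 24 h, against 5.60 and 5.58 at 3 h, a change of -1.51 ± 0.39 (SE, adjusted p = 0.0226). UGT71C2 changed by -1.36 ± 0.37 (adjusted p = 0.0262), UGT88A1 by -1.25 ± 0.29 (adjusted p = 0.0116) and UGT87A2 by -1.22 ± 0.34 (adjusted p = 0.0298). Leaving out 1 control array at a time ended these calls (adjusted p = 0.0517 to 0.253), except UGT73B5 and UGT88A1 without control replicate 1 at 24 h. In UGT73B5, UGT71C2 and UGT87A2 the ABA changes at 24 h were measured against these lower controls.

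The hormone responses of the 2 times were compared directly. The ABA response differed in 3 members, UGT73B5, UGT71C1 and UGT71C2, all higher at 24 h (6.52%, beside 7.35% of all probe sets, 3.23% higher and 4.12% lower). The ABA+JA response differed in UGT88A1, UGT71C5 and UGT71C2, again higher at 24 h (6.52%, beside 8.38% of all, 4.76% higher and 3.61% lower). The ABA+SA response differed in UGT85A5, lower at 24 h (2.17%, beside 3.87% of all, 2.29% higher and 1.57% lower). For SA and JA the limma count was 0 members (0.0615% and 0.317% of all probe sets), with 0 and 3 members at an unadjusted p under 0.05 and 338 and 2874 probe sets of all. For UGT71C2 the ABA+JA difference was 1.79 ± 0.52 (SE, adjusted p = 0.0414), a call lost in 21 of 34 settings, among them without either control of either time, with quantile normalization and in a fit of these groups alone. It was 1.22 without ABA+JA replicate 1 at 24 h (adjusted p = 0.193).

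Genes that work beside UGTs were followed in 10 lists, which the array annotation used here covers thinly. Of 203 listed names of hormone, flavonoid, phenylpropanoid and glucosinolate metabolism and nucleotide sugar supply, 17 were matched to a probe set of 1 gene. In 5 lists 0 or 1 were matched. The other 11 of 28 genes are GSTU glutathione transferases, which detoxify foreign compounds. Against control, 0 of the 28 were called higher and 1 lower with ABA at 3 h (14.1% of all probe sets called), and 1 higher and 1 lower with ABA at 24 h (17.5% of all). With ABA+SA at 3 h 3 were higher and 1 lower (15.6% of all), and with ABA+JA at 3 h 6 higher and 1 lower (22.4% of all). With ABA+JA at 24 h 4 were higher (8.7% of all probe sets called), with JA 1 at each time (JRG21; 0.343% and 4.01% of all), and with SA at 3 h, SA at 24 h and ABA+SA at 24 h limma called 0, where 0, 1 and 6 genes had an unadjusted p under 0.05. GSTU27 fell by 2.65 with ABA (adjusted p = 2.13e-05), 3.04 with ABA+SA (adjusted p = 2.48e-06) and 3.37 with ABA+JA (adjusted p = 8.53e-07) at 3 h, and GSTU16 rose by 1.82 with ABA+SA (adjusted p = 0.0064) and 2.19 with ABA+JA (adjusted p = 0.0012). With ABA+JA at 24 h GSTU27 rose by 0.94 (adjusted p = 0.0432), against controls that lay 1.54 lower at 24 h than at 3 h. HCT, which feeds monolignol synthesis, rose by 1.48 with ABA at 24 h (adjusted p = 0.00934), and USP, a UDP-sugar pyrophosphorylase that makes sugar donors, fell by 0.99 (adjusted p = 0.0099). DFR of anthocyanin synthesis rose by 1.24 with ABA+JA at 3 h (adjusted p = 0.000415), and GH3.17, which conjugates auxin to an amino acid, by 3.43 with ABA+SA (adjusted p = 0.0359) and 3.69 with ABA+JA (adjusted p = 0.0184). DFR was not called with ABA+SA at 3 h. Source names exchange the ABA+SA and ABA+JA arrays of that time, and the listed genes were not fitted that way. The cytokinin turnover list had 0 matched genes. A name without a match does not show that the gene is absent from the array.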

How the data were processed

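RNA of T87 cells was hybridised to 26 Affymetrix arrays. The authors' deposited table holds log2 values per probe set, which were made with RMA per the submitters' processing notes; its version and the genome build are not given in the sources used here, and the log2 scale was read from the values. No probe set has a missing value, and 0 further value columns were present. Genes were taken from the array annotation, with RefSeq's gene table (assembly TAIR10.1) used for names and neighbours.

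Arrays were grouped by title. All 22746 probe sets entered 1 limma fit (version 3.58.1, on R 4.3.3 with statmod 1.5.0) with a mean for each of 12 groups. It used 25 samples, since ABA replicates 2 and 3 at 3 h were averaged, and had 13 residual degrees of freedom before moderation. Each of 24 comparisons received its own Benjamini-Hochberg adjustment, with 0.05 as the threshold of a call. The fit was tested on simulated data. Errors beside changes are SEs of the fit, and intervals are 95%.

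Every member may be named. Values on each array are given for members called with at least a 2-fold change, up to the 10 largest per comparison, and genes outside the family come only from the 10 lists of working partners. Members, lists and acceptor classes were chosen with earlier results of these data known. One listed symbol, CHI, matched a chitinase and was left out after its annotation was read.

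Alternatives were a fit of only the groups compared, quantile normalization, omission of the dimmest 25% of probe sets, a replicate block, eBayes with trend and robust options, all 26 arrays fitted separately, JA and ABA+JA at 24 h by replicate 2 alone, grouping of combined 3 h arrays by source name, and leaving out each array. Where an omission left 1 array in a group, its spread was taken from the remaining groups.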

Additional observations from a re-analysis of the deposited data

Results flagged for a closer look

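For 7 member responses the change against control differed between 24 h and 3 h in limma's test of the difference itself. UGT71C1 responded to ABA more at 24 h by 2.66 (log2 changes 2.88 at 24 h and 0.22 at 3 h), UGT73B5 by 2.75 (1.86 and -0.89) and UGT71C2 by 1.98 (1.5 and -0.49). With ABA+JA the differences were 2.75 for UGT88A1 (0.74 and -2.01), 2.23 for UGT71C5 (0.28 and -1.95) and 1.79 for UGT71C2 (0.79 and -1.0). With ABA+SA it was -3.72 for UGT85A5 (1.09 and 4.81). The call was lost in 21 of 34 settings for UGT71C2 with ABA+JA, in 6 of 34 for UGT71C5, in 4 of 34 for UGT85A5 and in 4 of 33 for UGT71C2 with ABA, and in 0 for the others. UGT73B5, UGT71C2 and UGT88A1 also fell in the controls between the times, by 1.51, 1.36 and 1.25, and the part of that fall in these differences was not tested.

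Probe sets that match a UGT gene together with another gene lie outside the members, and 2 of the 3 were called. The probe set for UGT73B2 and UGT73B3 averaged 8.12 with ABA+SA and 6.73 with ABA+JA at 3 h, against 3.11 in the controls, changes of 5.01 and 3.62 (adjusted p = 0.000323 and 0.00292). At 3 h it changed by 2.28 with ABA alone (limma adjusted p = 0.0604) and by 1.68 with SA alone. Neither was called, though all these arrays lay above both controls, while JA alone overlapped them. With ABA at 24 h it averaged 5.03 (arrays 5.23, 3.58 and 6.26), against 2.84 in the controls, a change of 2.18 (adjusted p = 0.0426). The alternative settings were not run for this probe set. The change of 5.01 exceeds the largest change of a member, 4.81 for UGT85A5 with ABA+SA at 3 h. Which of the 2 genes the signal comes from cannot be told apart. The probe set for UGT89B1 and AT1G73885 changed by 1.79 with ABA+SA (adjusted p = 0.0011) and 1.75 with ABA+JA (adjusted p = 0.000903) at 3 h, to means of 8.53 and 8.49, against 6.74 in the controls.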

How the results depend on the processing

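Of 94 member changes called, all kept their direction under every alternative, 28 kept their call under every one, and 0 reversed. Settings that leave the compared group means as they were, such as omission of an array of another group, cannot change a direction. The counts of members called moved by more than 1.5 times as follows. With only the groups compared, limma called 2 with ABA at 3 h, 0 (ABA+SA) and 2 (ABA+JA) over ABA at 3 h, 0 with JA, 1 with ABA+SA and 1 with ABA+JA at 24 h, and 3 (ABA+SA) and 2 (ABA+JA) over ABA at 24 h. The 0 counts stand beside 11 and 5 members at an unadjusted p under 0.05. Without the dimmest 25% of probe sets it called 2 with JA at 24 h and 5 in the ABA+JA response between times. With all 26 arrays it called 11 for ABA+SA over ABA at 3 h and 2 with JA at 24 h. With replicate 2 of JA and ABA+JA at 24 h alone it called 8 for ABA+SA over ABA at 3 h, 9 with ABA+JA at 24 h, 2 for ABA+SA over SA at 24 h and 2 in the ABA+SA response. By source name it called 11 for ABA+JA over JA at 3 h and 2 in the ABA+SA response. The cause was not tested. Leaving out each array gave 3 to 10 members with ABA, 5 to 11 with ABA+SA and 5 to 11 with ABA+JA at 3 h, and 8 to 13, 1 to 3 and 2 to 6 at 24 h. SA gave 0 to 0 at both times, and JA 0 to 0 at 3 h and 0 to 5 at 24 h. Over ABA the ranges were 1 to 6 and 3 to 7 at 3 h and 1 to 6 and 4 to 7 at 24 h for ABA+SA and ABA+JA, over SA 3 to 8 and 0 to 2 at 3 h and 24 h, and over JA 4 to 10 and 0 to 0. The controls of both times gave 0 to 5, and the responses between times 2 to 4 for ABA, 0 to 0 for SA, 0 to 1 for JA, 0 to 2 for ABA+SA and 1 to 4 for ABA+JA. No label says that a replicate number marks a shared culture or day, and the numbers were not taken to pair the samples, since same-numbered arrays of 2 groups correlated at -0.401 to 0.699 after the group means were removed, over 0.1 in 32 of 66 pairs of groups and in 18 of 30 of the same time. Among the 5 groups other than ABA at 3 h all 10 pairs were over 0.1 (0.253 to 0.553), as were all 3 among control, SA and ABA+SA at 24 h (0.586 to 0.699). A replicate block, in which ABA replicate 3 at 24 h carries no information, gave 8 members with ABA, 10 with ABA+SA and 12 with ABA+JA at 3 h and 12 with ABA at 24 h, and 4 and 5 over ABA at 24 h. It ended 5 calls of members, UGT85A5 (adjusted p = 0.0746, ABA+SA) and UGT71B5 (0.056, ABA+JA) over ABA and UGT71B1 with ABA (0.105) at 24 h, and UGT76E12 with ABA+JA over ABA (0.0569) and UGT73B5 with ABA+SA over SA (0.0605) at 3 h. Of the members 12 lie in the dimmest 25% of probe sets by mean signal, and 4 of these were called. Calls over all probe sets were not counted in that part or under the alternatives, so these counts describe members alone.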

Other observations

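Many UGT genes stand side by side on their chromosomes, and 31 of the 46 members lie in 13 runs in which each member is at most 3 protein-coding genes from the next in RefSeq's gene order. Over the 12 group means, the 24 neighbouring pairs correlated with a median r of 0.42 (-0.42 to 0.77), the 26 pairs that share a subfamily letter without being neighbours with a median of 0.36, and the other 985 pairs with a median of 0.20. UGT73B4 and UGT73B5 (0.75), UGT78D2 and UGT78D3 (0.75) and UGT85A2 and UGT85A5 (0.77) were the neighbours most alike. UGT71C4 and UGT71C5 (-0.42), of which the second makes the glucose ester of ABA, were the least alike. These are descriptions over 12 group means, with all genes read on the same arrays.

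Across subfamilies, UGT71C4 and UGT78D2 had the most similar group means of all members (r = 0.96 over 12 group means). UGT85A5 was most like UGT71C4 (0.92), and UGT88A1 most like UGT71C5 (0.87), both lower with ABA at 3 h. UGT72E1 and UGT85A5 were the most opposed (-0.83).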
